A study of Mus musculus with 11 samples.

Results

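The transfer RNAs described here are those for the arginine codons AGA and AGG, taken as every table entry named ArgTCT or ArgCCT plus a number. That rule gives 6 ArgTCT and 4 ArgCCT entries, 10 of the 301 tRNA entries in the tables. The entries were measured in mouse embryonic fibroblasts (MEF) that the labels call Wt in all groups, apart from the constructs, and that express SV40 T antigen, a viral protein used to keep such cells dividing. The cells were stably transduced and kept under puromycin and G418 selection, in protocols that describe the wild-type and empty vector lines. The groups were METTL1-WT+WDR4, which overexpress wild-type METTL1 with WDR4 from pBabe vectors, METTL1-Mut+WDR4, which carry a METTL1 labelled mutant with WDR4, and empty vector. The labels do not give the change in the mutant or say whether the replicates came from separate cultures or clones, so every p-value below rests on the variation among these libraries alone, and that variation may be technical. Each group had 2 input libraries, made from small RNA treated with AlkB demethylases and left uncleaved, so they measure abundance in bulk cultures, where fewer cells holding a tRNA and less of it per cell cannot be told apart. The tables hold tRNA only, so neither METTL1 levels nor fibroblast markers could be checked.

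A tRNA carries its amino acid to the codon that its anticodon pairs with. Anticodon TCT (UCU in the RNA) reads AGA and, by wobble pairing, AGG, whereas CCT reads AGG. METTL1 is the enzyme, and WDR4 its partner, that attach N7-methylguanosine (m7G) to certain tRNAs at a variable-loop position, and this mark is known to protect such tRNAs from decay. Arg-TCT tRNAs belong to that m7G class and Arg-CCT tRNAs do not, according to the class list used here.

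The RefSeq annotation of GRCm38.p6, the assembly behind mm10, lists 5 tRNA genes for each anticodon. Those for TCT are n-TRtct1 at chr19:12011588-12011673, n-TRtct2 at chr3:122292948-122293032, n-TRtct3 at chr13:21917162-21917247, n-TRtct4 at chr11:69123482-69123568 and n-TRtct5 at chr1:173390329-173390402. The first 4 are 85 to 87 bases long, and n-TRtct5 is 74 bases long. Introns are a known feature of most mammalian Arg-TCT genes. The CCT genes are 73 bases long, with n-TRcct1 on chromosome 6, n-TRcct2 on chromosome 17, n-TRcct4 on chromosome X, and n-TRcct3 and n-TRcct5 close together on chromosome 11 (115413304-115413376 and 115412981-115413053). Entry names carry their own numbers, which could not be paired with these genes, so no entry is given a locus. The sources used here do not give how reads that fit several near-identical genes were counted. No other entry of the tables lay within 5% of any of the 10 in all 6 libraries.

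Levels were in RPM, reads per 1000000 reads assigned to the tRNA entries, so each value is a share of tRNA reads and a change in total tRNA cannot be seen. Taken as whole reads times a fixed step, the values imply 5405585 to 16003708 reads per library, and the read counts, counting errors and share intervals below rest on that reading. Behind the lowest single values stood 92 reads for ArgTCT51 and 129 reads for ArgTCT81, a counting error of 10.4% and 8.80%. For the other 8 entries the lowest value rested on 1991 reads or more. The median gap of the 10 entries between replicate libraries was, on the log2 scale, 0.08 in METTL1-WT+WDR4, 0.38 in METTL1-Mut+WDR4 and 0.23 in empty vector. Over all 301 entries the gap was 0.08 in METTL1-WT+WDR4, 0.21 in METTL1-Mut+WDR4 and 0.11 in empty vector. In each group most of these entries shifted the same way between replicates. With METTL1-Mut+WDR4, all 6 ArgTCT entries and 3 of 4 ArgCCT entries were lower in replicate 2 than in replicate 1. With METTL1-WT+WDR4 and with empty vector, 5 of 6 ArgTCT entries and 4 of 4 ArgCCT entries were higher in replicate 2. The widest single gap, 0.63, was that of ArgTCT81 in empty vector.

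Among the TCT entries, which read AGA, ArgTCT65 was the most abundant. It had 1898 and 1925 RPM in METTL1-WT+WDR4 libraries, 2625 and 1839 RPM in METTL1-Mut+WDR4 libraries, and 1725 and 1961 RPM in empty vector libraries. The 3 groups overlapped, and mutant replicate 1 was the single high value. ArgTCT126 had 1263 and 1275 RPM with METTL1-WT+WDR4, 1402 and 1016 RPM with METTL1-Mut+WDR4, and 1031 and 1212 RPM with empty vector. Both wild-type libraries lay above both empty vector libraries, while the mutant libraries lay on either side of those 4. ArgTCT57 had 738 and 741 RPM with METTL1-WT+WDR4, 899.8 and 664 RPM with METTL1-Mut+WDR4, and 652 and 667 RPM with empty vector. The wild-type libraries were again above empty vector, and the mutant libraries overlapped both.

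ArgTCT31 had 345 and 330.1 RPM in METTL1-WT+WDR4 libraries, 579 and 391 RPM in METTL1-Mut+WDR4 libraries, and 299.9 and 368 RPM in empty vector libraries. Both mutant libraries were above the other 4, which overlapped among themselves. ArgTCT81 had 53.3 and 58.9 RPM with METTL1-WT+WDR4, 95.9 and 71.2 RPM with METTL1-Mut+WDR4, and 15.1 and 23.9 RPM with empty vector. Its 3 groups were fully separate, with the mutant highest and empty vector lowest. ArgTCT51, the rarest entry, had 20.5 and 24.1 RPM with METTL1-WT+WDR4, 24.6 and 21.4 RPM with METTL1-Mut+WDR4, and 17.9 and 17.0 RPM with empty vector. Both METTL1 groups were above empty vector and overlapped each other.

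Of the CCT entries, which read AGG, 3 were more abundant than any TCT entry, and ArgCCT1 was the exception. ArgCCT118 had 13415 and 15714 RPM in METTL1-WT+WDR4 libraries, 18334 and 18661 RPM in METTL1-Mut+WDR4 libraries, and 11434 and 13707 RPM in empty vector libraries. The mutant libraries were above the other 4, and wild type overlapped empty vector. ArgCCT22 had 6837 and 7950.5 RPM with METTL1-WT+WDR4, 8655 and 7650.0 RPM with METTL1-Mut+WDR4, and 7144 and 9030 RPM with empty vector. ArgCCT55 had 6350 and 6781 RPM with METTL1-WT+WDR4, 8066 and 6362 RPM with METTL1-Mut+WDR4, and 6187 and 7256 RPM with empty vector. For both entries the mutant and wild-type ranges each overlapped that of empty vector. ArgCCT1 had 1077 and 1126 RPM with METTL1-WT+WDR4, 1055 and 924 RPM with METTL1-Mut+WDR4, and 1149 and 1215 RPM with empty vector. It was the only one of the 10 that was lowest in the mutant and highest in empty vector without overlap.

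Counted over the 10 entries, 4 lay wholly above and 1 wholly below empty vector with METTL1-WT+WDR4, where 49.5% and 15.0% of all 301 entries did. With METTL1-Mut+WDR4 the counts were 4 above and 1 below empty vector, beside 32.2% and 15.9% of all entries. Between METTL1-WT+WDR4 and METTL1-Mut+WDR4, 1 entry was wholly higher and 3 were wholly lower in METTL1-WT+WDR4, beside 43.2% and 15.3% of all entries.

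**Figure D1:**
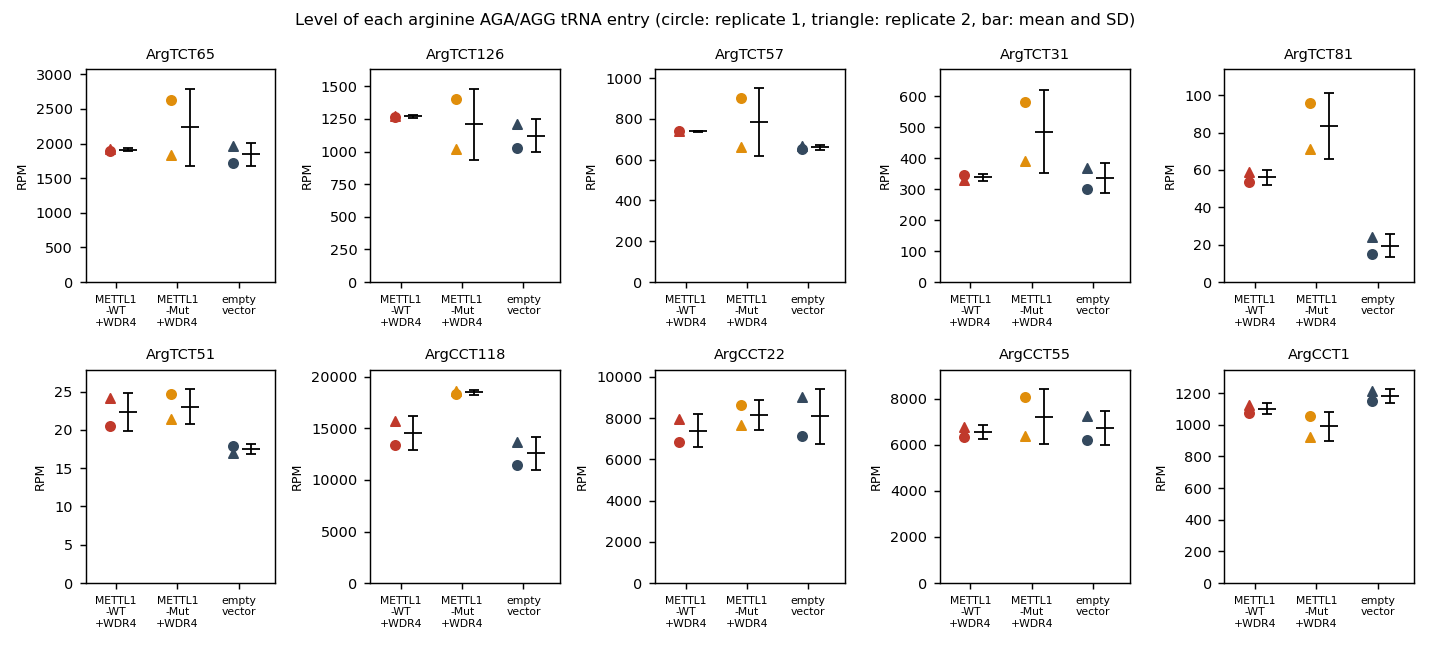
RPM (linear axis from 0) of the 6 ArgTCT and 4 ArgCCT entries in METTL1-WT+WDR4, METTL1-Mut+WDR4 and empty vector libraries, with circles for replicate 1, triangles for replicate 2 and bars for mean and SD of 2 libraries. ArgTCT81 lies between 53.3 and 95.9 RPM in the 4 METTL1 libraries and at 15.1 and 23.9 RPM in empty vector, while each other entry except ArgCCT1 overlaps between at least 1 pair of groups.

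RPM is not divided by length, so the order of entries is an order of read shares. Over the 6 libraries the mean ran from ArgCCT118 (15211 RPM) through ArgCCT22 (7878 RPM), ArgCCT55 (6834 RPM), ArgTCT65 (1995 RPM), ArgTCT126 (1199.8 RPM), ArgCCT1 (1091 RPM), ArgTCT57 (727 RPM), ArgTCT31 (386 RPM) and ArgTCT81 (53.0 RPM) to ArgTCT51 (20.9 RPM). ArgCCT22 exceeded ArgCCT55 in each library, by a ratio of 1.07 to 1.24. ArgTCT126 and ArgCCT1 could not be ordered, since their ratio ran from 0.897 to 1.33. The ratio of ArgTCT81 to ArgTCT51 ran from 0.843 to 3.89, so these rare entries changed places among the libraries. Every other pair of neighbours kept its order in all 6 libraries.

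Summed over entries, the TCT level was 4318 and 4353 RPM in METTL1-WT+WDR4 libraries, 5627 and 4003 RPM in METTL1-Mut+WDR4 libraries, and 3740.1 and 4249 RPM in empty vector libraries. The CCT sum was 27679 and 31572 RPM with METTL1-WT+WDR4, 36110 and 33597 RPM with METTL1-Mut+WDR4, and 25914 and 31208 RPM with empty vector. CCT reads thus outnumbered TCT reads in each library, by 6.41 to 8.39 times. In empty vector the CCT sum ranked 10 and the TCT sum 40 among the 54 anticodons. TCT made up 13.5% and 12.1% of the summed reads with METTL1-WT+WDR4, 13.5% and 10.6% with METTL1-Mut+WDR4, and 12.6% and 12.0% with empty vector. The 95% Wilson interval of each share reached at most 0.145 percentage points to either side, which covers counting error only, so the libraries of a group differed by more than counting error. The groups overlapped in this share.

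**Figure D2:**
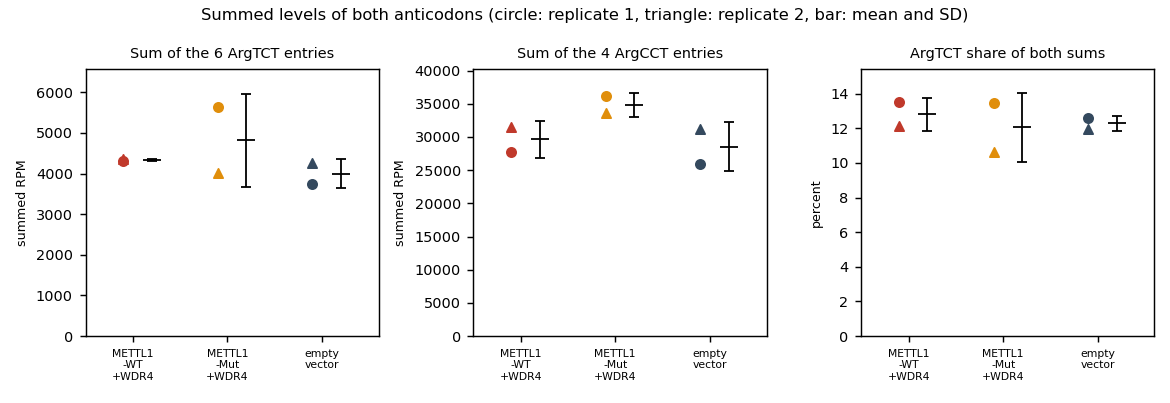
Summed RPM of the ArgTCT entries, summed RPM of the ArgCCT entries and ArgTCT as a percent of both sums (linear axes from 0) by group, with circles for replicate 1, triangles for replicate 2 and bars for mean and SD of 2 libraries. The share stays between 10.6% and 13.5% in all 6 libraries, and the ArgCCT sum of both mutant libraries lies above the other 4 libraries.

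The first comparison asked how these tRNAs changed with METTL1-WT+WDR4 relative to empty vector. Entries were tested with limma on log2(RPM + 1) over all 301 entries, with Benjamini-Hochberg (BH) adjustment and a threshold of 0.05. The fit pools variance over entries, so each SE and p-value draws on other entries too, not only on an entry's own 2 libraries a group. ArgTCT81 rose to 56.1 ± 3.90 RPM with METTL1-WT+WDR4, against 19.5 ± 6.18 RPM with empty vector (SD, n = 2 libraries each), a log2 fold change of 1.51 ± 0.16 SE (BH-adjusted p = 4.6e-07 in limma). ArgCCT118 rose to 14565 ± 1626 RPM, against 12570 ± 1607 RPM with empty vector (log2 fold change 0.21 ± 0.08 SE, BH-adjusted p = 0.0448 in limma). The 2 groups of this entry overlapped, and its call was lost in 7 of 13 alternative fits, among them those without METTL1-WT+WDR4 replicate 2 or without empty vector replicate 1. Over the alternatives its log2 fold change ran from 0.0081, when each library was centred on the no-m7G list, to 0.34 (limma BH-adjusted p from 1.8e-04 to 0.977). These 2 of 10 entries set against 30.2% of all entries called higher make a share below the background. None of the 10 was called lower by limma after BH adjustment, where 7.31% of all entries were. At an unadjusted limma p under 0.05, 0 of the 10 were lower. Without empty vector replicate 1, ArgCCT22 was called lower (log2 fold change −0.29, limma BH-adjusted p = 0.00123, against 0.00123 to 0.979 over its alternatives).

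The other 5 TCT entries did not pass the test, with log2 fold changes of 0.02 for ArgTCT31 to 0.33 for ArgTCT51. With a pseudocount of 5, ArgTCT51 did pass (0.28, limma BH-adjusted p = 0.048). Whether ArgTCT126 passed depended on the library left out, at 0.30 without empty vector replicate 2 and 0.07 without empty vector replicate 1. The values of ArgTCT126, ArgTCT31, ArgTCT57 and ArgTCT65 turned negative when each library was centred on the median of the no-m7G list. The other 3 CCT entries had values of −0.12 for ArgCCT22, −0.10 for ArgCCT1 and −0.03 for ArgCCT55, which did not pass either. The median was 0.17 over the TCT entries and −0.07 over the CCT entries, beside 0.16 over all 301 entries. That centring shifted the median over all entries by −0.21, and the whole table then had 29 higher and 38 lower calls in place of 91 and 22. Centred on the median of all entries, the calls were 51 higher and 3 lower. ArgTCT81 stayed called in each alternative fit that kept it, at a log2 fold change of 1.20 to 1.82. Its limma BH-adjusted p was 0.00638 without a variance trend and 0.0219 with the no-m7G centring.

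On the level of whole anticodons neither sum was called, although the TCT sum of both wild-type libraries lay above empty vector, as for 40.7% of all anticodon sums. The TCT sum was 4336 ± 24.8 RPM with METTL1-WT+WDR4 and 3995 ± 360.0 RPM with empty vector (SD, n = 2 each), a log2 fold change of 0.12 ± 0.09 SE (BH-adjusted p = 0.368 in limma over 54 anticodons). Without empty vector replicate 1 that value was 0.03, and without empty vector replicate 2 it was 0.21, neither of which passed. The CCT sum was 29625 ± 2753 RPM with METTL1-WT+WDR4 and 28561 ± 3743 RPM with empty vector (log2 fold change 0.06 ± 0.09 SE, BH-adjusted p = 0.671 in limma). Both values turned negative under the no-m7G centring. Of all anticodon sums, 27.8% were called in this comparison. Among the 54 log2 fold changes, those of TCT and CCT ranked 23 and 30 from the highest. ArgTCT81 itself held 1.23% and 1.35% of TCT reads with METTL1-WT+WDR4 and 0.404% and 0.562% with empty vector.

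The second comparison asked the same of METTL1-Mut+WDR4. It uses the same empty vector libraries as the first. Of the 10 entries 3 rose and none fell in limma (0 lower at an unadjusted p under 0.05), where 7.31% of all entries were called higher and 0.997% lower. ArgTCT81 rose to 83.5 ± 17.5 RPM with METTL1-Mut+WDR4, against 19.5 ± 6.18 RPM with empty vector (SD, n = 2 each), a log2 fold change of 2.06 ± 0.18 SE (BH-adjusted p = 4.2e-25 in limma). That SE and p-value lean on variance pooled over all entries. For ArgTCT81 itself, replicate 2 minus replicate 1 was −0.43 log2 with METTL1-Mut+WDR4 and 0.63 log2 with empty vector. ArgTCT31 rose to 485 ± 133 RPM, against 334 ± 48.4 RPM with empty vector (log2 fold change 0.52 ± 0.14 SE, BH-adjusted p = 0.0071 in limma). ArgCCT118 rose to 18497 ± 231 RPM, against 12570 ± 1607 RPM with empty vector (log2 fold change 0.56 ± 0.19 SE, BH-adjusted p = 0.0346 in limma).

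The ArgTCT81 call held in all 13 alternative fits that kept the entry, at 1.75 to 2.38. The ArgCCT118 call was lost in 5 of 14 alternative fits, which include those without either empty vector library and both centrings, at log2 fold changes of 0.43 to 0.69 over the alternatives (limma BH-adjusted p from 1.5e-04 to 0.777 over the alternatives). The ArgTCT31 call was lost in 4 of 14, which include those without mutant replicate 1 or empty vector replicate 1 (limma BH-adjusted p from 8.5e-05 to 0.474 over the alternatives). The other 4 TCT entries had values of 0.09 for ArgTCT126 to 0.38 for ArgTCT51 that did not pass. For ArgTCT65 this depended on the library left out, at 0.51 without mutant replicate 2 and 0.0002 without mutant replicate 1. ArgCCT22 stood at 0.02, ArgCCT55 at 0.10 and ArgCCT1 at −0.26, also without passing. Under the no-m7G centring, which shifted the median of all entries by −0.10 here, the values of ArgTCT126, ArgCCT22 and ArgCCT55 turned negative. The median was 0.32 over the TCT entries and 0.06 over the CCT entries, beside 0.09 over all entries.

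The mutant TCT sum was 4815 ± 1148 RPM, against 3995 ± 360.0 RPM with empty vector (log2 fold change 0.25 ± 0.14 SE, BH-adjusted p = 0.328 in limma over the anticodons). The CCT sum was 34854 ± 1777 RPM with METTL1-Mut+WDR4 and 28561 ± 3743 RPM with empty vector (log2 fold change 0.29 ± 0.15 SE, BH-adjusted p = 0.323 in limma). Neither sum passed, with 0 of both at an unadjusted limma p under 0.05 in any of the 3 comparisons, though CCT ranked 5 and TCT 7 of 54 from the highest, and 5.56% of anticodon sums were called. Without mutant replicate 2 the TCT sum passed, at 0.50 (limma BH-adjusted p = 0.0322, against 0.0322 to 0.968 over the alternatives). Both mutant libraries lay above both empty vector libraries in the CCT sum, which 20.4% of all anticodon sums did. TCT and CCT together held 4.17% and 3.76% of tRNA reads with METTL1-Mut+WDR4 and 2.97% and 3.55% with empty vector (exact two-sided permutation p = 0.33, the smallest that 2 against 2 libraries allow).

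**Figure D3:**
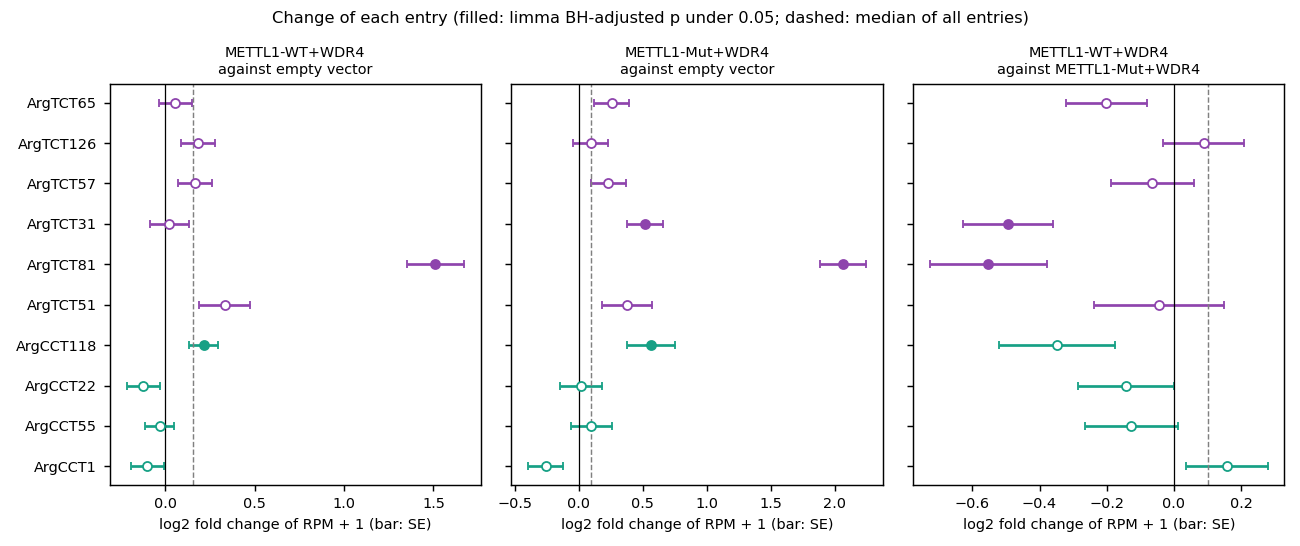
Log2 fold change of RPM + 1 (linear axis, bars for SE) of the 10 entries in the 3 comparisons, purple for ArgTCT and green for ArgCCT, with filled points for limma BH-adjusted p under 0.05 and a dashed line for the median of all 301 entries. ArgTCT81 stands at 1.51 and 2.06 against empty vector, and at −0.55 between the METTL1 groups, and the other filled points are ArgTCT31 at 0.52 and −0.49 and ArgCCT118 at 0.21 and 0.56.

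The third comparison set METTL1-WT+WDR4 against METTL1-Mut+WDR4 directly. ArgTCT31 was lower with METTL1-WT+WDR4, at 338 ± 10.5 RPM, against 485 ± 133 RPM with METTL1-Mut+WDR4 (SD, n = 2 each; log2 difference −0.49 ± 0.13 SE, BH-adjusted p = 0.00385 in limma). ArgTCT81 was lower as well, at 56.1 ± 3.90 RPM with METTL1-WT+WDR4 and 83.5 ± 17.5 RPM with METTL1-Mut+WDR4, a log2 difference of −0.55 ± 0.17 SE (BH-adjusted p = 0.0146 in limma). These are 2 of 10 entries, where 3.65% of all entries were called lower and 11.3% higher. Centred on the no-m7G list, the whole table had 14 higher and 10 lower calls in place of 34 and 11. Both calls were lost when either wild-type library or mutant replicate 1 was left out. Without mutant replicate 1 the log2 difference was −0.21 for ArgTCT31 and −0.34 for ArgTCT81. Without mutant replicate 2 it was −0.78 for ArgTCT31 and −0.77 for ArgTCT81. Over all alternatives the limma BH-adjusted p ran from 1.6e-09 to 0.282 for ArgTCT31 and from 8.9e-06 to 0.557 for ArgTCT81. ArgCCT118 had a difference of −0.35 (limma BH-adjusted p = 0.169) that did not pass, and the other 7 entries lay between −0.20 for ArgTCT65 and 0.16 for ArgCCT1. Except for ArgTCT51, whether these entries passed depended on the library left out. ArgCCT118 stood at −0.36 without mutant replicate 1 and at −0.34 without mutant replicate 2. In the same order ArgTCT65 stood at 0.055 and −0.46, and ArgTCT126 at 0.32 and −0.14. The median was −0.13 over the TCT entries and −0.13 over the CCT entries, beside 0.10 over all entries. It was 0.14 over the other entries of the m7G list and 0.10 over the other entries of the no-m7G list.

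The TCT sum differed by −0.13 ± 0.13 SE (BH-adjusted p = 0.568 in limma) and the CCT sum by −0.24 ± 0.13 SE (BH-adjusted p = 0.215 in limma) between METTL1-WT+WDR4 and METTL1-Mut+WDR4. Both passed without mutant replicate 2 (−0.38 and −0.29), while the TCT difference turned to 0.12 without mutant replicate 1. Over all alternatives the limma BH-adjusted p ran from 0.00225 to 0.864 for TCT and from 0.0161 to 0.827 for CCT. In the whole comparison 5.56% of anticodon sums were called, and 13.0% were wholly lower in METTL1-WT+WDR4, the CCT sum among them.

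Whether the m7G-class anticodon moved apart from its partner was read from the log2 ratio of the TCT sum to the CCT sum, which does not depend on how a library is scaled. It averaged −2.77 ± 0.13 with METTL1-WT+WDR4, −2.88 ± 0.27 with METTL1-Mut+WDR4 and −2.83 ± 0.06 with empty vector (SD, n = 2 each). The difference from empty vector was 0.07 for METTL1-WT+WDR4 and −0.04 for METTL1-Mut+WDR4 (exact two-sided permutation p = 0.67 and 1.00). Between METTL1-WT+WDR4 and METTL1-Mut+WDR4 it was 0.11 (exact two-sided permutation p = 0.67). With only the most abundant entry of each anticodon, the difference from empty vector was −0.16 for METTL1-WT+WDR4 and −0.31 for METTL1-Mut+WDR4. With 2 libraries a group a p below 0.33 cannot be reached, so no call on the balance is possible.

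Within each anticodon, the make-up of the reads was examined after the values had been seen. ArgCCT118 held 48.5% and 49.8% of CCT reads in METTL1-WT+WDR4 libraries, 50.8% and 55.5% in METTL1-Mut+WDR4 libraries, and 44.1% and 43.9% in empty vector libraries. ArgCCT22 held 24.7% and 25.2% with METTL1-WT+WDR4, 24.0% and 22.8% with METTL1-Mut+WDR4, and 27.6% and 28.9% with empty vector. ArgCCT1 held 3.89% and 3.57% with METTL1-WT+WDR4, 2.92% and 2.75% with METTL1-Mut+WDR4, and 4.44% and 3.89% with empty vector. In both METTL1 groups the share of ArgCCT118 was thus above, and those of the other 3 CCT entries below, both empty vector libraries, for ArgCCT1 in METTL1-WT+WDR4 replicate 1 by less than the digits printed. For the ArgCCT118 share this gap was 5.10 percentage points with METTL1-WT+WDR4 and 9.14 with METTL1-Mut+WDR4 (exact two-sided permutation p = 0.33 each).

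Among the TCT entries, ArgTCT31 held 7.99% and 7.58% of TCT reads with METTL1-WT+WDR4, 10.3% and 9.76% with METTL1-Mut+WDR4, and 8.02% and 8.67% with empty vector. ArgTCT126 held 29.3% and 29.3% with METTL1-WT+WDR4, 24.9% and 25.4% with METTL1-Mut+WDR4, and 27.6% and 28.5% with empty vector. Shares within an anticodon are not independent, since a rise in some must lower others. By level both entries had positive log2 fold changes with METTL1-Mut+WDR4 against empty vector, 0.09 for ArgTCT126 and 0.52 for ArgTCT31. The ArgTCT126 share was highest in METTL1-WT+WDR4 and lowest in METTL1-Mut+WDR4, and the ArgTCT31 share the reverse, each without overlap. Such separation was common, since 67.0% of entries in anticodons with several entries had shares without overlap in the wild-type comparison, 57.7% in the mutant comparison and 60.1% between the METTL1 groups. The 95% Wilson intervals of all these shares reached at most 0.645 percentage points to either side.

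**Figure D4:**
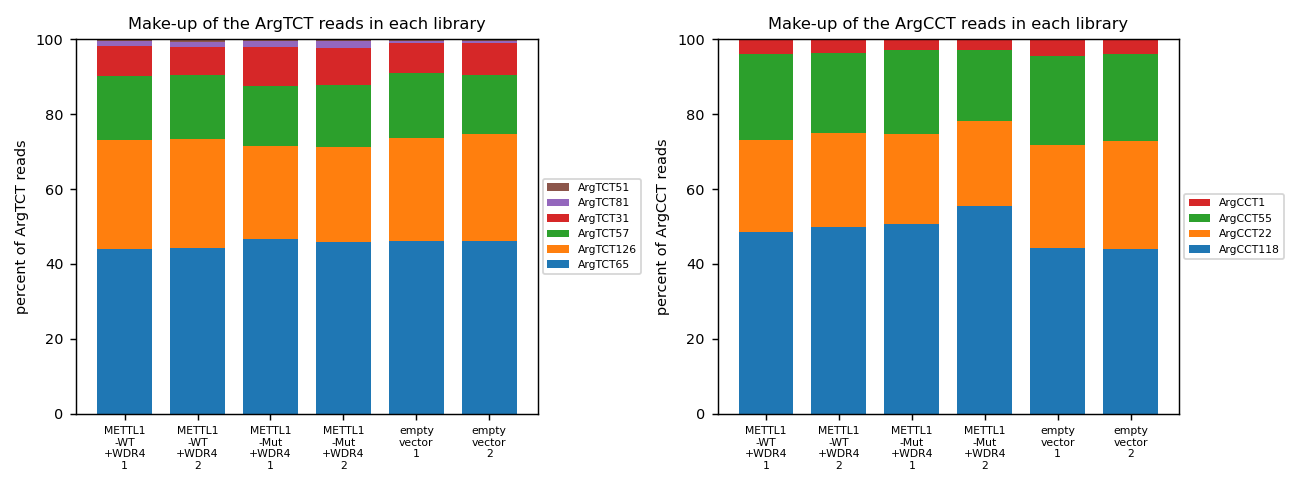
Percent of ArgTCT reads (left) and of ArgCCT reads (right) held by each entry, as stacked bars from 0 to 100 for each of the 6 libraries. The ArgCCT118 segment covers 48.5% to 55.5% in the 4 METTL1 libraries and 43.9% and 44.1% in empty vector.

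The other arginine tRNAs, with anticodons ACG, CCG and TCG, read the CGN codons. Of their 10 entries 1 rose and 1 fell with METTL1-WT+WDR4 (median log2 fold change 0.06), 0 were called by limma with METTL1-Mut+WDR4 (0.01, with 1 at an unadjusted p under 0.05), and 1 was lower with METTL1-WT+WDR4 than with METTL1-Mut+WDR4 (0.00). AGA and AGG tRNAs held 38.9% and 41.2% of arginine tRNA reads with METTL1-WT+WDR4, 47.9% and 44.5% with METTL1-Mut+WDR4, and 38.1% and 42.0% with empty vector. The mutant libraries were above the other 4 (exact two-sided permutation p = 0.33 against either group). This share also depends on the CGN sums. In METTL1-WT+WDR4, METTL1-Mut+WDR4 and empty vector, in that order, the ACG sum averaged 32981, 27613 and 29584 RPM. The CCG sum averaged 10422, 10388 and 11467 RPM, and the TCG sum 7322, 8208 and 7512 RPM. Among the other 170 entries of the m7G list, 64 rose and 15 fell with METTL1-WT+WDR4 (median 0.21), and 9 rose and 1 fell with METTL1-Mut+WDR4 (median 0.07). Among the other 101 entries of the no-m7G list, 24 rose and 6 fell with METTL1-WT+WDR4 (median 0.13), and 7 rose and 2 fell with METTL1-Mut+WDR4 (median 0.10).

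Entries of other anticodons with a like course over the 6 libraries were sought by the root mean square difference of log2 profiles, each centred on its own mean. None came close to ArgTCT81: the nearest of 237 candidates were MetCAT22, a methionine tRNA entry, at 0.53, AlaAGC410 at 0.59 and ThrAGT131 at 0.61. MetCAT22 differed in order, with 767 and 810.4 RPM in METTL1-WT+WDR4 libraries, 529 and 427 RPM in METTL1-Mut+WDR4 libraries, and 145 and 188 RPM in empty vector libraries. ArgTCT65 had close neighbours in AlaCGC2 (0.07), GlyCCC14 (0.07) and ArgCCT55 (0.09). AlaCGC2 and GlyCCC14 had nearly equal RPM in each library, such as 575 and 579 RPM in empty vector replicate 1. They may thus not be separate neighbours, and whether they share reads was not tested. ArgCCT118 lay nearest to AspGTC13 (0.15), GlyCCC21 (0.15) and ThrAGT44 (0.17). These distances include the spread between replicates.

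In the authors' deposited tables, which give an unadjusted p for untransformed RPM, 2 of the 10 entries had p under 0.05 with METTL1-WT+WDR4, where 87 of all 301 entries did. The 2 were ArgTCT81 (fold change 2.88, p = 0.0194 in the authors' deposited table) and ArgTCT57 (fold change 1.12, p = 0.00991 in the authors' deposited table). With METTL1-Mut+WDR4 the 2 entries in the authors' deposited table were ArgTCT81 (fold change 4.29, p = 0.0395) and ArgCCT118 (fold change 1.47, p = 0.0355), where 32 of all 301 entries had p under 0.05. ArgTCT57 was not called in the limma fit (log2 fold change 0.16 ± 0.09 SE, BH-adjusted p = 0.183 in limma). ArgTCT31 had p = 0.271 in the authors' deposited table for the mutant, where the limma fit called it.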

How the data were processed

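Input TRAC-seq libraries of 3 groups, 2 each, were analysed, and the 5 cleaved libraries were not used. The reads were processed with Bowtie, bedtools and Trim Galore on mm10, per the submitters' processing notes, which carry no versions. The authors deposited RPM per tRNA entry in 2 tables with identical empty vector columns, with a fold change, its log2 value, a p-value and its −log10 per the file headers. Implied totals come from RPM steps, since each value came out as whole reads (tolerance 0.01 reads). Reads counted in several entries would inflate them.

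RPM was transformed as log2(RPM + 1), without a filter. Each comparison was fitted on its own 4 libraries in limma 3.58.1 (R 4.3.3) with a variance trend, for 301 entries and again for RPM summed over 54 anticodons, with BH adjustment over all. A fold change on this scale understates that of low entries. Exact permutation tests compared ratios and shares. All 10 entries are named, without the prefix of the tables. Neighbours are the 3 nearest profiles, with a mean of at least 10 RPM, of ArgTCT81 and the most abundant entry of each anticodon. The m7G list held 176 entries and the no-m7G list 105. Members, lists and tests were chosen with earlier results of these data known. Alternatives were other pseudocounts, filters, variance and library models, centrings and leaving out each library. The planned edgeR and DESeq2 tests were not run: the values are RPM, and although each came out as whole reads, the tables hold too few low values to establish the reads firmly enough for a count test. Read counts, counting errors and share intervals carry the same doubt.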

Additional observations from a re-analysis of the deposited data

How the results depend on the processing

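ArgTCT81 was called higher than empty vector under each alternative run with METTL1-WT+WDR4 (12 fits) and METTL1-Mut+WDR4 (13 fits). Of 394 values of single entries under alternatives, 331 kept direction and call, 23 lost the call, 12 gained it and 28 changed sign. The cause was not tested.

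With METTL1-WT+WDR4 against empty vector, only ArgTCT81 of the 10 entries was called without a variance trend, in a common fit of 6 libraries and under both centrings. A 100 RPM minimum removed ArgTCT81 and ArgTCT51 from the test, and ArgCCT118 was then the only call. Calls over all entries were 71 in the common fit, 67 centred on the no-m7G list and 54 centred on all entries (51 higher, 3 lower). Centred on the no-m7G list, the log2 change became −0.085 for the TCT sum, −0.15 for the CCT sum, −0.022 for ArgTCT126, −0.18 for ArgTCT31, −0.041 for ArgTCT57 and −0.15 for ArgTCT65. Centred on all entries, ArgTCT31 was at −0.0016. The ratio of TCT to CCT from the most abundant entries was −0.16 here and −0.31 with METTL1-Mut+WDR4 against empty vector. Leaving out each library in turn gave 1 to 3 called entries of the 10, 52 to 142 of all, 0.029 to 0.21 for the TCT sum, −0.078 to 0.19 for the CCT sum, −0.29 to 0.045 for ArgCCT22, −0.15 to 0.085 for ArgCCT55, −0.13 to 0.17 for ArgTCT31, −0.037 to 0.15 for ArgTCT65 and −0.024 to 0.15 for the ratio.

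With METTL1-Mut+WDR4 against empty vector, 1 of the 10 and 8 of all entries were called when centred on the no-m7G list, and 16 of all when centred on all entries. ArgCCT22 was then at −0.084 and −0.026, and on the no-m7G list ArgCCT55 was at −0.0064 and ArgTCT126 at −0.0080. Leaving out each library gave 1 to 4 called entries of the 10, 6 to 30 of all, 0.0060 to 0.50 for the TCT sum, −0.15 to 0.19 for ArgCCT22, −0.075 to 0.27 for ArgCCT55, −0.14 to 0.33 for ArgTCT126 and −0.23 to 0.15 for the ratio.

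With METTL1-WT+WDR4 against METTL1-Mut+WDR4, a 100 RPM minimum removed ArgTCT81 and ArgTCT51 from the test, and ArgTCT31 was then the only call among the 10 entries. Centred on the no-m7G list, 24 of all entries were called (14 higher, 10 lower), and ArgTCT126 was at −0.014. Leaving out each library gave 0 to 7 called entries of the 10, 3 to 130 of all, −0.38 to 0.12 for the TCT sum, −0.33 to −0.14 for the CCT sum, −0.30 to 0.045 for ArgCCT55, −0.14 to 0.32 for ArgTCT126, −0.16 to 0.066 for ArgTCT51, −0.28 to 0.15 for ArgTCT57, −0.46 to 0.055 for ArgTCT65 and −0.087 to 0.30 for the ratio.

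The replicate numbers were not shown to pair the libraries, since deviations of same-numbered libraries correlated at 0.16, −0.28 and −0.05 over 243 entries in the 3 comparisons. With a replicate block, the calls over all entries were 112 for METTL1-WT+WDR4 and 13 for METTL1-Mut+WDR4 against empty vector, where a crossed pairing chosen after seeing the data gave 22, and 25 for METTL1-WT+WDR4 against METTL1-Mut+WDR4, with 1 of the 10 entries. The limma BH-adjusted p was then 0.148 for ArgCCT118 with METTL1-Mut+WDR4 against empty vector and 0.0646 for ArgTCT81 between the METTL1 groups, in place of 0.0346 and 0.0146. Count tests were not run. In fits that leave a group with 1 library, that library is assumed to vary like the others. Depth limits ArgTCT51 and ArgTCT81 most, whose lowest values rest on 92 and 129 reads.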
